A study of Mus musculus with 4 samples.

Results

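Collagen genes encode the main structural proteins of the extracellular matrix, and they were followed here in 4 RNA sequencing libraries from mice with and without the deubiquitinase gene Usp25. The members were every listed gene whose symbol reads Col, a number, the letter a and a number, which gave 44 of the 24421 listed genes, and all 44 are listed in each library. Poly(A) RNA came from animals on a C57BL/6 background, labelled as females of 8 weeks. The genotypes were intact Usp25 (Usp25+/+, animals 139 and 140) and Usp25 loss (Usp25-/-, animals 826 and 850), with 2 libraries each. All 4 animals carry the same label for treatment, the sulfated polysaccharide DSS, which damages colon epithelium, at 2.5% in the drinking water over 5 days and plain water over the next 2 days, and for tissue, a distal segment of colon. Untreated animals were not analysed here, and the labels do not say which part of Usp25 was removed. Values are FPKM, fragments scaled to transcript length and to the mapped fragments of the library, so that levels of different genes can be set side by side, and the sequencing depth behind them is unknown.

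A collagen molecule is a rope of 3 chains wound around each other, built from one or several gene products. Fibrillar collagens such as types I, III and V form the load-bearing fibres made mostly by fibroblasts. Type IV collagens form the sheet of the basement membrane under epithelia and around vessels, type VI forms beaded filaments beside it, and the multiplexins XV and XVIII sit in the basement membrane zone. The remaining classes are fibril-associated collagens (FACIT), anchoring fibrils, hexagonal networks and collagens that span the cell membrane. In lung and colon alike, fibroblasts, smooth muscle, pericytes, endothelium and epithelium all contribute some of these chains.

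The libraries were checked against their labels first. The targeted gene Usp25 was high in Usp25+/+ (38.5 and 16.6 FPKM) and low in Usp25-/- (2.65 and 1.71 FPKM). Of 11 listed colon epithelial markers 8 stayed below 1 FPKM in every library, and Cdx1, Zg16 and Aqp8 were listed at 0 in all 4. The summed level of 8 lung epithelial markers was 2273 and 4333 FPKM in Usp25+/+ and 5201 and 5202 FPKM in Usp25-/-. The Y-linked Ddx3y lay between 12.7 and 30.3 FPKM, and Xist, the RNA that coats an inactive X chromosome, reached at most 0.110 FPKM. The transcripts thus did not match the labelled tissue and sex, so the values below go by genotype label, and which tissue they describe is uncertain. Usp25+/+ 139 stood apart: its 11 listed neutrophil markers summed to 48134 FPKM against 868 to 2276 FPKM in the others, and it listed 20556 genes above 0 against 15603 to 17242.

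Collagen transcripts were scarce in all 4 libraries. The 44 genes summed to 85.6 and 107.6 FPKM for Usp25+/+ 139 and 140 against 91.0 and 155.3 FPKM for Usp25-/- 826 and 850. These sums were 0.0160, 0.0197, 0.0161 and 0.0295% of the library totals, so that Usp25-/- 850 was high and Usp25-/- 826 lay between the 2 Usp25+/+ libraries. Only 11 genes reached a mean of 1 FPKM, and these held 87.8 to 93.8% of the collagen sum. Type IV was the largest class in each library, at 36.7, 57.5, 42.4 and 42.4% of the sum in the same order. Fibrillar collagens held 26.3, 21.3, 28.9 and 39.3%. Type VI held 16.5% in Usp25+/+ 139 and 5.84 to 7.95% in the others, and the multiplexins held 13.6, 8.19, 16.9 and 8.91%.

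**Figure D1:**
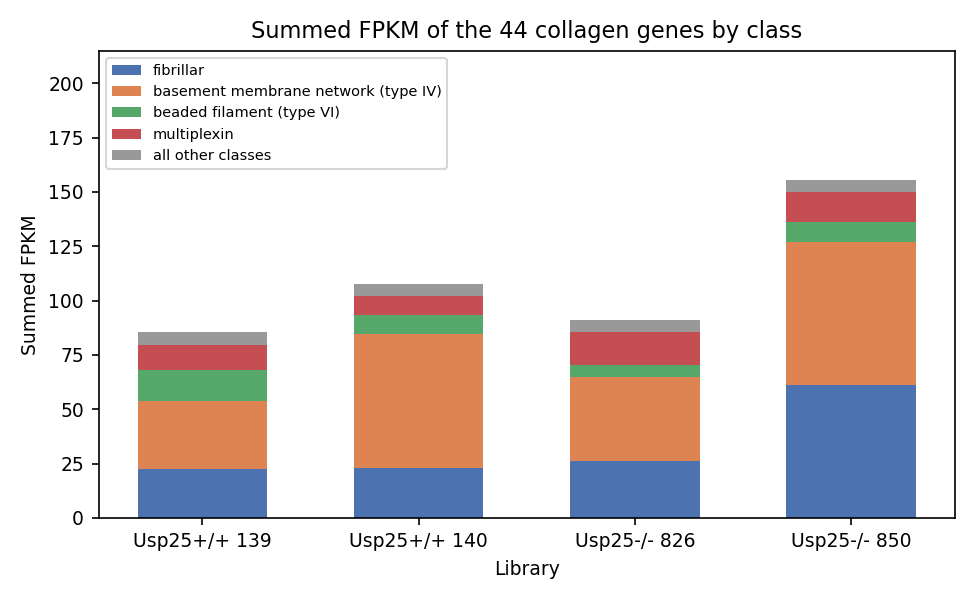
Summed FPKM of the 44 collagen genes in each library, stacked by class, with 1 bar per library. The bar of Usp25-/- 850 reaches 155.3 FPKM, and type IV is the largest class in every bar.

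No collagen passed the test between the genotypes, nor did any other gene. The comparison of Usp25-/- with Usp25+/+ used limma on log2(FPKM + 1) for the 12011 genes whose mean reached 1 FPKM, with Benjamini-Hochberg adjustment over all of them. Limma called 0 of 11 tested collagens and 0 of 12011 genes (0%) at an adjusted p of 0.05. At an unadjusted p of 0.05, 1 collagen passed, Col18a1, against 3.12% of all tested genes (2.11% higher and 1.01% lower in Usp25-/-). Without the filter on low values, Col18a1 and Col11a2 passed an unadjusted p of 0.05, against 3.68% of all genes. Of the 11, 7 lay above 0 and 4 below it on the log2 scale, where 53.5% and 46.5% of all tested genes did. The median log2 fold change was 0.20 for the 11 and 0.03 for all tested genes. The genotypes did not overlap in 4 collagens, 3 higher and 1 lower in Usp25-/-, against 33.8% of all tested genes (19.0% higher and 14.7% lower). The share of collagens was thus close to that of all genes. Over all 44 members without the filter, 12 did not overlap, against 22.8% of all listed genes. Leaving out 1 library makes overlap rarer: 5, 10, 7 and 8 collagens then did not overlap without 139, 140, 826 and 850, where 72.5, 80.8, 53.0 and 60.8% of all tested genes did not. For 1 gene, 4 libraries leave an exact two-sided permutation p no lower than 0.333.

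**Figure D2:**
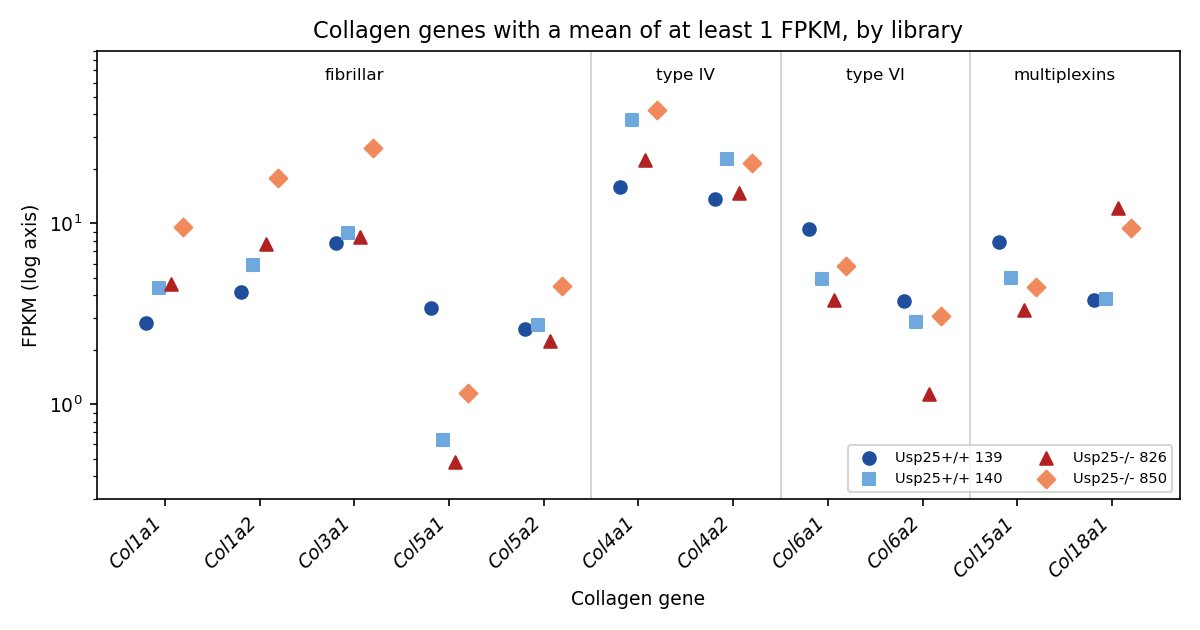
FPKM (log axis) of the 11 collagen genes whose mean reached 1 FPKM, grouped by class, with 1 symbol per library. Col4a1 and Col4a2 stand highest in Usp25+/+ 140 and Usp25-/- 850, and only in Col1a1, Col1a2, Col15a1 and Col18a1 do the symbols of the genotypes not overlap.

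Of the fibrillar collagens, types I and III stood highest in Usp25-/- 850. Col1a1 and Col1a2 encode the chains of type I collagen, the main collagen of scar and of connective tissue, and Col3a1 encodes type III, which forms thin fibres beside it. Col1a1 was listed at 2.81 and 4.38 FPKM for Usp25+/+ 139 and 140 against 4.64 and 9.61 FPKM for Usp25-/- 826 and 850. Col1a2 was listed at 4.18 and 5.92 FPKM against 7.70 and 17.8 FPKM, and Col3a1 at 7.80 and 8.82 FPKM against 8.37 and 26.2 FPKM. The genotypes did not overlap in Col1a1 and Col1a2, and in Col3a1 Usp25-/- 826 lay between the Usp25+/+ libraries. The gap between the genotypes was narrow in Col1a1, from 4.38 to 4.64 FPKM. Mean Col1a2 was 5.05 ± 1.23 FPKM in Usp25+/+ and 12.8 ± 7.16 FPKM in Usp25-/- (SD, n = 2 each). The log2 fold change of Col1a2, taken on FPKM + 1 and not from these means, was 1.09 (SE 0.45), with an adjusted p of 0.960 from limma. For Col3a1 it was 0.78 (SE 0.55) with the same adjusted p from limma. Without Usp25-/- 850 these values were 0.54 for Col1a2 and 0.01 for Col3a1, and that of Col1a1 was 0.32 where all 4 libraries gave 0.77.

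Type V collagen, which sits inside type I fibrils and limits their width, had another order of libraries. Col5a1 was listed at 3.43 and 0.632 FPKM for Usp25+/+ against 0.483 and 1.16 FPKM for Usp25-/-, so that Usp25+/+ 139 alone was high. Its log2 fold change was -0.59 (SE 0.58; limma adjusted p = 0.960), and it became 0.13 without Usp25+/+ 139. Its partner chain Col5a2 was listed at 2.60 and 2.73 FPKM against 2.24 and 4.50 FPKM, again highest in Usp25-/- 850 and lowest in Usp25-/- 826. Col5a2 lies on mm9 chromosome 1 from 45431166 to 45560127, 24.6 kb from Col3a1 and tail to tail with it.

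The promoter stretches of Col1a2 and Col3a1 are shown because these genes had the highest fibrillar levels. They are RefSeq promoter bases, each found once in mm9, cut to the longest run outside every exon of GENCODE vM1. Col1a2 (chr6:4455370-4455492, plus strand, 123 bases ending 126 bases before the RefSeq start) and Col3a1 (chr1:45368133-45368382, plus strand, 250 bases ending at the start) read 5′ to 3′ as follows. The Col1a2 stretch lies inside the gene as GENCODE vM1 annotates it, which starts further upstream, at 4454814, and outside its exons. Capitals mark the motif GGGCGG, a GC box that Sp1 factors can bind, on either strand. They also mark the motif TATAAA on either strand at any position in the stretch, and its use as a promoter element was not tested.
Col1a2: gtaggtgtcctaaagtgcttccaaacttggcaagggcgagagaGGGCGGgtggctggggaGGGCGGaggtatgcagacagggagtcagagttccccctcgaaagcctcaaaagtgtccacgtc
Col3a1: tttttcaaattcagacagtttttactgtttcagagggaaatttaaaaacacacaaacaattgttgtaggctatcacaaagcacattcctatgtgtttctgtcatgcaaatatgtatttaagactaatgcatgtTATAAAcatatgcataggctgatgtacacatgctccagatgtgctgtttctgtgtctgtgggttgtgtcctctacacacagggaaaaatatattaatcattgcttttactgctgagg
The Col1a2 stretch is rich in G and C (59.3%) and holds GGGCGG 2 times, a motif that 13.3% of 32851 RefSeq promoters hold in the same window on either strand. Over the whole 250 bases, 22 of 38 promoters of 35 collagen genes (57.9%) held it, against 32.7% of all promoters, and 5 of 38 held TATAAA. The Col3a1 stretch has 35.2% G and C, against a median of 52.4% over all 250-base promoters. It holds TATAAA 1 time, 117 bases before the start, as do 12.4% of promoters of that length on either strand. Col3a1 lies on mm9 chromosome 1 from 45368383 to 45406551 (plus strand), Col1a2 on chromosome 6 from 4454814 to 4491543 and Col1a1 on chromosome 11 from 94797538 to 94814356. Col1a1 overlaps Gm17329 on the other strand, a gene that is not among the listed symbols. The libraries kept no strand, so that reads within the overlap cannot be assigned to either gene.

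Fibroblast markers were also highest in Usp25-/- 850, and 5 of 7 mesothelial markers were too. The 11 listed fibroblast markers summed to 51.6 and 71.8 FPKM for Usp25+/+ against 42.2 and 108.0 FPKM for Usp25-/-. All 11 were found, 10 reached a mean of 1 FPKM, 7 stood highest in Usp25-/- 850, and Tcf21 was listed at 0 in Usp25-/- 826. Dcn, the proteoglycan decorin that coats collagen fibrils, was listed at 28.3 and 30.4 FPKM against 20.6 and 59.7 FPKM. The 7 mesothelial markers summed to 51.7 and 35.4 FPKM against 142.9 and 90.6 FPKM, mostly through Msln at 46.3, 32.4, 137.7 and 74.1 FPKM, and Bnc1 was listed at 0 in Usp25-/- 826. Of the 7, only Msln was highest in Usp25-/- 826. In bulk RNA fewer cells of a type and less RNA per cell cannot be told apart, and the part of these cells in the collagen values was not tested.

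Type IV collagens were the most abundant members, and their levels did not separate by genotype. Col4a1 and Col4a2 encode the chains of the common basement membrane trimer. Col4a1 was listed at 15.9 and 37.3 FPKM for Usp25+/+ 139 and 140 against 22.4 and 42.1 FPKM for Usp25-/- 826 and 850, where it ranked 3770th, 1842nd, 2912th and 1594th of all listed genes. Col4a2 was listed at 13.7 and 22.6 FPKM against 14.7 and 21.6 FPKM. In both genes animals 140 and 850 were high, 139 and 826 were low, and the genotypes overlapped. Mean Col4a1 was 26.6 ± 15.1 against 32.2 ± 13.9 FPKM (SD, n = 2 each), and its log2 fold change was 0.32 (SE 0.53; limma adjusted p = 0.966). It became -0.27 without Usp25+/+ 139 and -0.12 without Usp25-/- 850.

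The endothelial markers had the same high pair of animals. The 10 listed genes, all with a mean of at least 1 FPKM and none at 0 in any library, summed to 106.5 and 264.8 FPKM for Usp25+/+ against 107.4 and 200.7 FPKM for Usp25-/-. Pecam1, an adhesion molecule of endothelial junctions, was listed at 28.7 and 56.6 FPKM against 22.6 and 44.4 FPKM. The same pair was highest in the fibroblast sums given above and in the summed smooth muscle markers (14.0 and 18.7 against 15.8 and 20.4 FPKM). It was not the highest pair in the mesothelial or pericyte sums. The part of endothelial or other cells in the type IV values was not tested. Pericyte markers were scarce, with sums of 9.67 and 13.2 FPKM against 4.98 and 9.53 FPKM, and Higd1b was listed at 0 in Usp25-/- 826.

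The type IV genes lie in head-to-head pairs, with the starts of each pair close together. On mm9 chromosome 8, Col4a1 (11198423 to 11312826, minus strand) and Col4a2 (11312805 to 11449287, plus strand) overlap by 22 bases at their starts in GENCODE vM1. Col4a3 and Col4a4 are 71 bases apart on chromosome 1, and Col4a5 and Col4a6 are 1308 bases apart on chromosome X. None of the last 4 genes reached a mean of 1 FPKM. Col4a3, Col4a4 and Col4a5 encode the chains of specialised basement membranes such as those of kidney glomerulus and lung alveolus. Col4a5 stayed between 0.838 and 1.02 FPKM in all libraries, Col4a3 was listed at 0.423 and 0.576 FPKM for Usp25+/+ against 0.143 and 0.309 FPKM for Usp25-/-, and Col4a4 at 0.453 and 0.281 against 0.230 and 0.518 FPKM. Col4a6 did not exceed 0.421 FPKM. The 8 alveolar type 1 markers summed to 193.6 and 314.3 FPKM against 354.0 and 331.8 FPKM in the same libraries. Most of each sum came from Aqp5, Ager and Pdpn, and 6 of the 8 reached a mean of 1 FPKM.

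Type VI collagen was highest in Usp25+/+ 139 and lowest in Usp25-/- 826. Col6a1 and Col6a2 encode its short chains and Col6a3 its long one. Col6a1 was listed at 9.34 and 4.93 FPKM for Usp25+/+ against 3.75 and 5.81 FPKM for Usp25-/-, and Col6a2 at 3.74 and 2.86 FPKM against 1.14 and 3.07 FPKM. In both genes the range of the genotypes overlapped, with Usp25-/- 850 above Usp25+/+ 140. The log2 fold changes were -0.46 (SE 0.40) for Col6a1 and -0.54 (SE 0.42) for Col6a2, each with a limma adjusted p of 0.960, and they were -0.06 for Col6a1 without Usp25+/+ 139 and -0.07 for Col6a2 without Usp25-/- 826. Col6a3 was listed at 0.827 and 0.726 FPKM against 0.188 and 0.469 FPKM, below the level tested. Col6a4, Col6a5 and Col6a6, the alternative long chains, did not exceed 0.198 FPKM.

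The multiplexins were the pair in which the genotypes lay apart in opposite directions. Col18a1 encodes type XVIII collagen, a heparan sulfate proteoglycan of basement membranes whose end fragment is endostatin, and Col15a1 encodes its relative type XV. Col18a1 was listed at 3.77 and 3.84 FPKM for Usp25+/+ against 12.1 and 9.41 FPKM for Usp25-/-. Both Usp25-/- libraries were high, and the gap to Usp25+/+ was wider than the spread within either genotype. The means were 3.80 ± 0.0540 and 10.8 ± 1.90 FPKM (SD, n = 2 each), a 2.83-fold difference. Its log2 fold change on FPKM + 1 was 1.28 (SE 0.29), with a limma p of 0.00594 before and 0.960 after adjustment over 12011 genes. Leaving out each library in turn gave log2 fold changes of 1.11 to 1.45. Col15a1 was listed at 7.90 and 4.97 FPKM for Usp25+/+ against 3.31 and 4.43 FPKM for Usp25-/-. The difference on the log2 scale was -0.59 (SE 0.34; limma adjusted p = 0.960), and it was -0.30 without Usp25+/+ 139. Usp25+/+ 140 exceeded Usp25-/- 850 by little.

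**Figure D3:**
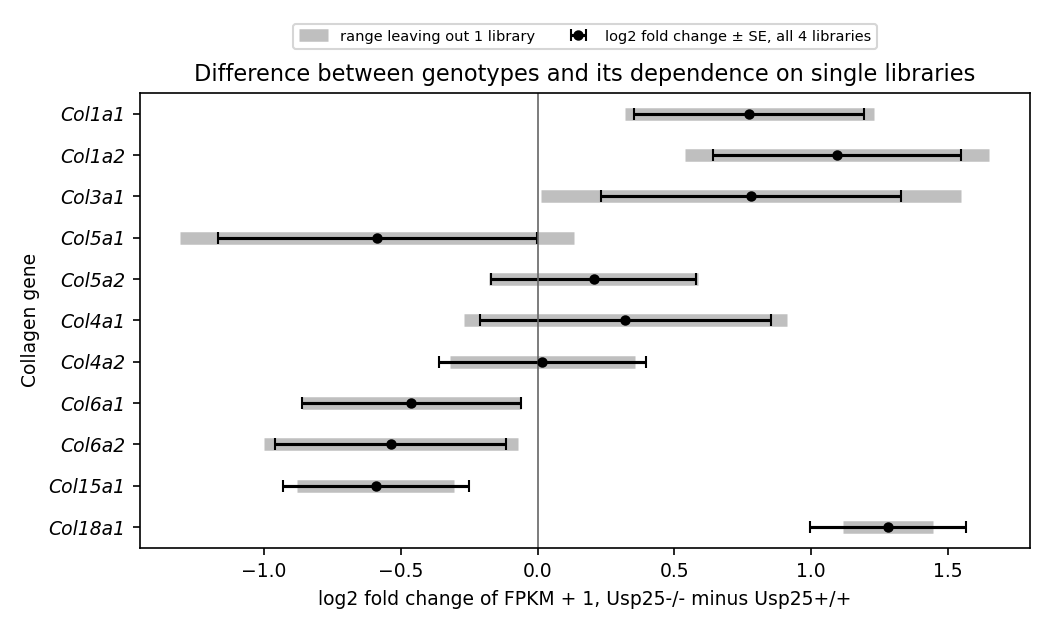
Log2 fold change (FPKM + 1) between Usp25-/- and Usp25+/+ for the 11 tested collagens, with the standard error from limma as bars and the range over the fits that each leave out 1 library in grey. Col18a1 (1.28) keeps a narrow grey range, while those of Col4a1, Col4a2, Col5a1 and Col5a2 cross 0.

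Stretches before the starts of both multiplexin genes are shown because the levels of these genes lay apart by genotype in opposite directions. Col15a1 (chr4:47220634-47220883, plus strand, 250 bases ending at the RefSeq start) and Col18a1 (chr10:76629294-76629525, minus strand, 232 bases ending 19 bases before the upstream RefSeq start) come from the same sources in mm9, with the same motifs in capitals.
Col15a1: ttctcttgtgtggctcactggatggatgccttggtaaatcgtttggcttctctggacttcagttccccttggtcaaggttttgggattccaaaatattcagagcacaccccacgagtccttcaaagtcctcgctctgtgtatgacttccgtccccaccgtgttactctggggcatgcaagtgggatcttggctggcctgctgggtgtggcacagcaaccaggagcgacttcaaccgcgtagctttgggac
Col18a1: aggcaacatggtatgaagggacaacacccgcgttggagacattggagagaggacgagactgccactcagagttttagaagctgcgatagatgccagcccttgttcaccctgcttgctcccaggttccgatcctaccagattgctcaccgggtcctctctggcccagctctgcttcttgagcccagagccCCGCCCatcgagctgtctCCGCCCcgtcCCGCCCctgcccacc
The Col18a1 stretch holds the reverse strand form of GGGCGG 3 times, 61, 43 and 33 bases before the start, and 30.1% of RefSeq promoters hold the motif on either strand in the same window. The Col15a1 stretch holds neither motif. RefSeq gives Col18a1 a further start, whose window is not shown, and the deposited value per gene does not separate the transcripts of the starts. Col18a1 lies on mm9 chromosome 10 from 76514923 to 76629293 (minus strand) and overlaps Slc19a1 on the other strand, which was listed at 1.65 and 2.67 FPKM against 2.45 and 2.11 FPKM. Col15a1 lies on chromosome 4 from 47221033 to 47326039 and overlaps Gm12426 on the other strand. Reads of these overlaps too cannot be assigned to a strand.

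The other basement membrane genes had no common highest library. Of the 16 on this list, animal 140 had the top value for 7, animal 826 for 6 and animal 850 for 3. The laminin chain Lamb3 and the proteoglycan Agrn were among the 6 that peaked in animal 826, whose library also had the highest Col18a1. Of 13 tested genes of that list 7 were positive and 6 negative, with a median log2 fold change of 0.20, and 0 passed the test. The genotypes did not overlap in 5 of them, all higher in Usp25-/-, where 19.0% of all tested genes stood higher without overlap. Lamb3, found in basement membranes of epithelia, was listed at 8.78 and 8.70 FPKM against 26.0 and 10.5 FPKM, and the heparan sulfate proteoglycan Agrn at 7.42 and 9.23 FPKM against 15.2 and 11.4 FPKM. Of 8 lung epithelial markers 1, the surfactant protein gene Sftpb, was highest in Usp25-/- 826, at 3284 FPKM against 865, 1139 and 1581 FPKM in 139, 140 and 850. Another 4 of the 8 were lowest in Usp25-/- 826, and 5 were highest in Usp25-/- 850. The 11 colon epithelial markers summed to 5.58 and 4.23 FPKM against 70.7 and 11.9 FPKM. Krt20, a keratin of surface epithelia, made up most of this sum in Usp25-/- 826 at 52.4 FPKM. The part of these cells in the Col18a1 values was not tested.

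Ratios of genes within a library do not depend on how the library was scaled. Of 15 pairs listed, 8 had both genes at a mean of at least 1 FPKM, and 4 of these share Col1a1. The ratio of Col1a1 to Col1a2 had the narrowest range, 0.672 and 0.740 in Usp25+/+ and 0.603 and 0.539 in Usp25-/-, a difference of -0.31 between the genotypes' mean log2 ratios. The ratio of Col4a1 to Col4a2 was 1.16 and 1.65 against 1.52 and 1.95, and that of Col6a1 to Col6a2 was 2.50 and 1.72 against 3.30 and 1.89, both with overlap. Col5a1 exceeded Col5a2 in Usp25+/+ 139 alone, where the ratio was 1.32 against 0.215 to 0.258 in the others. Col3a1 to Col1a1 was 2.77 and 2.01 against 1.80 and 2.73. Relative to Col1a1, Col5a2 stood at 0.924 and 0.624 against 0.483 and 0.468, and Col4a1 at 5.64 and 8.51 against 4.82 and 4.38. Both ratios were lower in each Usp25-/- library than in either Usp25+/+ library. Col1a1, by which both are divided, was itself higher in both Usp25-/- libraries, while Col5a2 and Col4a1 overlapped on their own. The ratio of Col15a1 to Col18a1 had the widest range, 2.097 and 1.29 in Usp25+/+ and 0.273 and 0.471 in Usp25-/-, a log2 difference of -2.20 that stayed between -2.59 and -1.81 when each library was left out. As Col18a1 was higher and Col15a1 lower in both Usp25-/- libraries, their ratio had to lie apart by genotype and adds nothing to their separate values. The ratios were not tested and are given as a description.

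**Figure D4:**
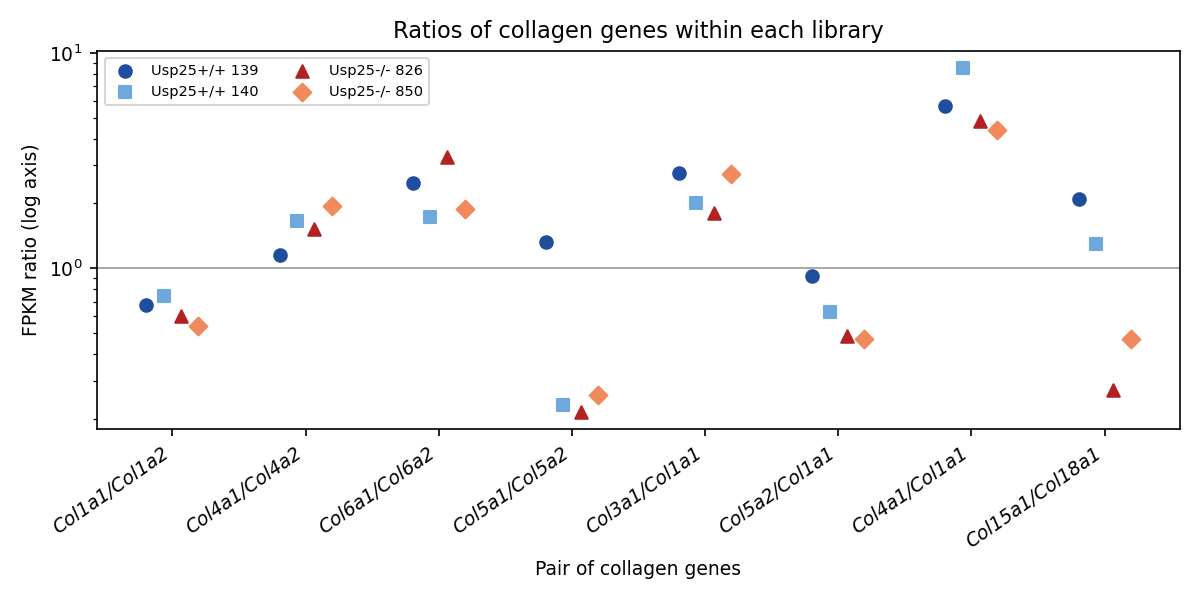
FPKM ratio (log axis) of 8 pairs of collagen genes in each library, with 1 symbol per library and a line at equal levels. Col1a1 to Col1a2 stays between 0.539 and 0.740, and Col15a1 to Col18a1 is above 1 in both Usp25+/+ libraries and below 1 in both Usp25-/- libraries.

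The other 33 collagens had means below 1 FPKM and were not tested. In 28 of them no library reached 1 FPKM, and the other 5 (Col4a5, Col11a2, Col14a1, Col20a1 and Col27a1) reached it in at least 1 library. Of the 33, 18 were listed at 0 in at least 1 library, and Col26a1 was listed at 0 in all 4. More were above 0 in Usp25+/+ 139 (42 of all 44) than in Usp25+/+ 140 (32), Usp25-/- 826 (36) and Usp25-/- 850 (32), as were more of all listed genes (84.2% against 63.9, 70.6 and 64.7%). Col11a2, a fibrillar chain known from cartilage, was listed at 0.483 and 0.291 FPKM for Usp25+/+ against 1.51 and 1.13 FPKM for Usp25-/-, without overlap. Its partner Col11a1 was at most 0.167 FPKM. Col2a1, the main collagen of cartilage, did not exceed 0.0852 FPKM, and Col9a1, Col9a2 and Col9a3 of the same fibrils reached up to 0.256 FPKM in Usp25+/+ and stood at 0 in both Usp25-/- libraries. Of 12 listed cartilage markers 9 stayed below 1 FPKM in every library, with Ucma at 0 in all. The large fibrillar chain Col27a1 was listed at 0.589 and 0.142 FPKM against 1.07 and 0.588 FPKM, and Col24a1, Col5a3 and Col2a1 each had at least 1 library at 0.

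The fibril-associated class held 9 listed members, none at a mean of 1 FPKM. Col14a1, which binds decorin-coated fibrils, was listed at 0.222 and 1.16 FPKM for Usp25+/+ against 1.19 and 0.815 FPKM for Usp25-/-, with Usp25+/+ 139 alone low. Col20a1 was listed at 0.337 and 1.27 FPKM against 1.07 and 0.318 FPKM. Col16a1 was even, between 0.475 and 0.655 FPKM, and Col12a1, known from tendon and stressed tissue, was listed at 0.510 and 0.242 FPKM against 0.174 and 0.319 FPKM. Col19a1 and Col22a1 did not exceed 0.276 FPKM. Among the networks, Col8a1, a collagen of vessel walls, was listed at 0.567 and 0.204 FPKM against 0.541 and 0.726 FPKM, Col8a2 at 0.355 and 0.178 against 0.150 and 0.260 FPKM, and Col10a1, a collagen of growth plate cartilage, at 0.304 and 0 against 0.842 and 0.530 FPKM. Col10a1 overlaps Nt5dc1 on the other strand.

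Collagens tied to epithelial adhesion were low. Col17a1 spans the membrane of basal epithelial cells in hemidesmosomes and was listed at 0.766 FPKM in Usp25+/+ 139, at 0 in Usp25+/+ 140 and Usp25-/- 826, and at 0.0861 FPKM in Usp25-/- 850. The basal keratins Krt5 and Krt14 stood at 19.0 and 25.6 FPKM in Usp25+/+ 139, and in the other libraries Krt5 did not exceed 0.191 and Krt14 4.05 FPKM. The 9 basal and squamous markers summed to 63.2 and 11.1 FPKM against 38.2 and 18.8 FPKM, with 7 of 9 highest in Usp25+/+ 139. Among the other libraries, 2 were listed at 0 in Usp25+/+ 140 and 5 in Usp25-/- 850, and their part in the Col17a1 values was not tested. Col7a1, the anchoring fibril collagen, was even, between 0.363 and 0.562 FPKM. Col23a1 and Col25a1, further membrane collagens, were highest in Usp25+/+ 139 at 0.726 and 0.476 FPKM, and Col13a1 and Col28a1 did not exceed 0.338 FPKM.

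The listed enzymes and chaperones that build collagen summed to 683 and 885 FPKM against 904 and 916 FPKM, above the collagen sums. Most of each sum came from P4hb, Ppib and Colgalt1, so it does not stand for the other genes of the list. Ppib was listed at 138 and 190 FPKM against 189 and 167 FPKM, and Colgalt1 at 80.8 and 146 FPKM against 130 and 129 FPKM. Of 34 listed genes 23 were tested, 17 above and 6 below 0 on the log2 scale (median 0.14), where 53.5% of all tested genes lay above 0, and 0 were called. P4hb, a subunit of the prolyl hydroxylase that also serves as a general protein disulfide isomerase, was listed at 289 and 280 FPKM for Usp25+/+ against 346 and 288 FPKM for Usp25-/-. Sparc, a matrix protein that binds collagen and aids its folding, had the largest difference of the list, at 30.1 and 58.5 FPKM against 69.8 and 127.0 FPKM. The log2 value was 1.15 (SE 0.49), with an adjusted p of 0.960 from limma. Its genotypes did not overlap, and like Col1a2 it was highest in Usp25-/- 850.

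**Figure D5:**
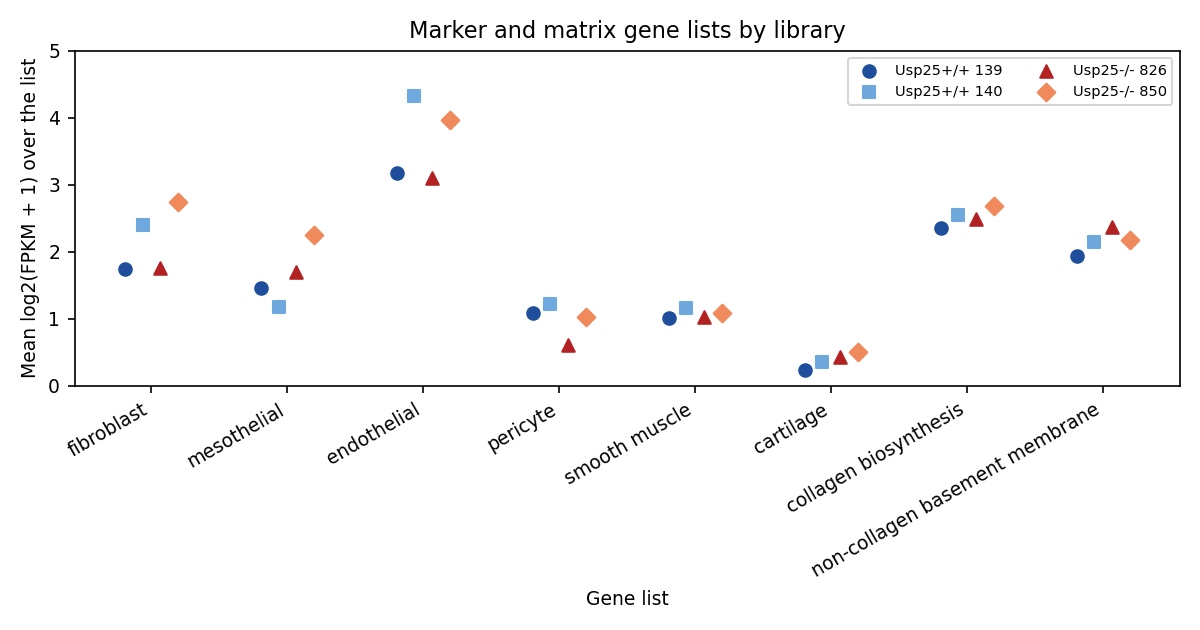
Mean log2(FPKM + 1) over each list of markers or matrix genes, with 1 symbol per library. The endothelial mean is highest in Usp25+/+ 140 (4.33) and Usp25-/- 850 (3.96), and the fibroblast mean in Usp25-/- 850 (2.74) and Usp25+/+ 140 (2.39).

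Receptors, turnover enzymes and fibril partners showed no common direction. Of 6 tested collagen receptors 3 were positive and 3 negative, with 0 called. Ddr1, a receptor kinase of epithelial cells that binds collagen, was listed at 2.29 and 3.07 FPKM against 7.16 and 3.91 FPKM, and Lair1, an inhibitory collagen receptor of leukocytes, at 21.4 and 25.9 FPKM against 11.4 and 16.6 FPKM, both without overlap. Of 9 tested turnover genes 5 were positive and 4 negative. Ctsk, a lysosomal protease that cleaves collagen, was listed at 495 and 1473 FPKM against 892 and 1064 FPKM. Mmp8, the collagenase of neutrophils, was listed at 254 FPKM in Usp25+/+ 139 and at 12.9 to 16.8 FPKM in the others, and it is itself 1 of the 11 neutrophil markers. Of 9 tested proteoglycans and glycoproteins 4 were positive and 5 negative, and Fn1, the fibronectin gene, was listed at 86.3 and 114.4 FPKM against 86.4 and 75.2 FPKM. Of 15 tested genes of the TGF-beta pathway, which raises collagen transcription in fibroblasts, 5 were positive and 10 negative, with a median of -0.06.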

How the data were processed

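Each library's table of 24421 gene symbols was used as deposited, 1 table per animal. Per the submitters' processing notes, the authors' tools included cutadapt, TopHat2 2.1.1 and Cufflinks, on the mouse genome mm9, and those notes name no annotation, filter or scaling. The deposited values are taken as FPKM because Cufflinks is named and the library totals differ (526652 to 565645), and no header states the unit. FPKM keep no read counts, so no counting error is given, and a long gene is measured by more reads at the same value. Per the labels' protocols, the libraries were made without strand information.

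Groups came from the genotype in the titles, and the series' design gives 2 mice a genotype. Animal numbers differ between genotypes and link no animals across them, so no pairing was used, and n is 2 each. The 12011 genes whose mean reached 1 FPKM were compared on log2(FPKM + 1), a scale that shrinks the changes of low genes, with limma 3.58.1 in R 4.3.3 (lmFit, eBayes with trend, two-sided, Benjamini-Hochberg over all 12011). The fit was tested on simulated data. Members, gene lists, pairs and tests were chosen with earlier results of these data known. Fold changes are printed for the 3 tested collagens farthest from 0 in each direction and the most abundant of each class, with Col1a1 added after its values were seen. In each other list the examples came from the 3 most abundant tested genes and the one that differed most, with Krt20 and Higd1b, Tcf21 and Bnc1 named after their values were seen, and some genes this rule names are not reported here. Positions came from GENCODE vM1 on mm9, which held 43 of the 44 collagens, and promoters from the RefSeq table of GRCm38.p6, which held 35, matched to mm9 by sequence. Alternatives were other pseudocounts (0.1 and 5), filters, scalings and variance models and leaving out each library. Where a library was left out, its genotype's lone library was given the spread of the other genotype.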

Additional observations from a re-analysis of the deposited data

How the results depend on the processing

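No paired analysis was run because the animal numbers link no animals across the genotypes. Limma called 0 genes and 0 collagens under every alternative run. The count of collagens without overlap between genotypes was 4, with a range of 5 to 10 when 1 library was left out, where 53.0 to 80.8% of all tested genes did not overlap, and it was 12 of 44 without the filter on low values (22.8% of 24421 genes). The median log2 fold change of the tested collagens ranged from -0.18 (without Usp25-/- 850) to 0.59 (without Usp25-/- 826). That of the fibrillar class was 0.77, ranged from 0.011 (without Usp25-/- 850) to 1.23 with 1 library left out, and was 0.20 without the filter. With 1 library left out, log2 fold changes ranged from -0.27 to 0.91 for Col4a1, from -0.32 to 0.36 for Col4a2, from -1.31 to 0.13 for Col5a1 and from -0.18 to 0.59 for Col5a2, and the other 7 kept their sign. Among these 7, Col1a1, Col1a2, Col15a1 and Col18a1 could not change sign, because their genotypes do not overlap. Median-ratio scaling turned Col4a2 from 0.02 to -0.014, the 1 reversal among 74 values under other settings, and the cause was not tested. Depth is unknown, so no detection limit can be given for the members listed at 0.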

Other observations

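Relative to summed fibroblast markers, types I and III did not overlap between genotypes, but relative to mesothelial markers they did. Type IV did not overlap relative to summed endothelial markers. These ratios were chosen after the values were seen and are given without a test. Of all single tested genes, 33.8% did not overlap between genotypes either. Col1a1, Col1a2 and Col3a1 together were 0.287 and 0.266 of the summed fibroblast markers in Usp25+/+ 139 and 140, and 0.491 and 0.497 in Usp25-/- 826 and 850. Dcn was the largest part of that marker sum, at 28.3 and 30.4 FPKM against 20.6 and 59.7 FPKM. Col1a1 and Col1a2 did not overlap between genotypes on their own either. Col4a1 and Col4a2 together were 0.278 and 0.226 of the summed endothelial markers against 0.345 and 0.318. Against the summed mesothelial markers, types I and III were 0.286 and 0.540 against 0.145 and 0.592, with overlap.

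Col18a1 made up 32.3 and 43.6% of the summed multiplexin FPKM in Usp25+/+ and 78.5 and 68.0% in Usp25-/-. These shares restate the Col15a1 and Col18a1 values given above. Of the 11 tested collagens 5 stood highest in Usp25-/- 850, where 17.5% of all tested genes did.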
